A study of Mus musculus with 8 samples.

Results

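The 10 circadian clock genes Arntl, Npas2, Per1, Per2, Per3, Cry1, Nr1d1, Nr1d2, Dbp and Tef were taken by symbol from the 23282 gene rows of each of 8 libraries, 4 from liver and 4 from uterus. All 10 had a row. The libraries are 3' end RNA sequencing (QuantSeq, which reads near the polyadenylated end of a transcript, so that a count stands for about 1 transcript whatever its length). All animals were female CD-1 mice, an outbred stock, ovariectomized at 6 weeks of age and left to recover for 1 week. In each tissue, 1 library came from ovariectomized controls given neither agent. The other 3 came from mice dosed by mouth for 7 days. One received bisphenol A (BPA), a monomer of plastics with weak estrogenic action, at a dose of 200 mg/kg/day. Another received 1.2 g/kg/day of Korean red ginseng (KRG). The third received both agents at these doses and is called the combined library here. How many animals entered a library, whether both organs of an animal were used, and at what time of day tissue was taken are not given in the labels. With 1 library per group, no comparison of 2 libraries has a replicate check.

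In the mammalian clock, the protein of Arntl (BMAL1) pairs with CLOCK or its paralog NPAS2 and activates genes through E-box motifs. Among those genes are Per1, Per2, Per3 and Cry1, whose proteins inhibit the activator, Nr1d1 and Nr1d2, which encode the REV-ERB repressors of Arntl and Npas2, and Dbp and Tef, which encode activators that bind D-box motifs. Arntl and Npas2 transcripts therefore peak at a different time of day from those of Nr1d1, Dbp and the Per genes, and in liver the swing of Arntl, Npas2 and Dbp over a day is very large. Below, Arntl and Npas2 are called the positive arm, and Per1 to Per3, Nr1d1, Nr1d2, Dbp and Tef the E-box genes, with Cry1 kept apart.

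The motifs through which these factors act were looked for in RefSeq promoter windows on GRCm38.p6, from 250 bases before to 50 bases after an annotated start, with 9 members matched. Per2 is the member without one. An E-box (CACGTG) stood in a window of Per1, of Cry1 and in both windows of Tef, against 7.15% of all 32851 windows. A D-box (TTATGTAA or TTACGTAA) stood at 2 places in the Per3 window, against 1.06% of windows. A ROR/REV-ERB element (TAGGTCA or TGGGTCA) stood in 1 of 2 Arntl windows, against 6.45% of windows. Both strands were searched. A match is a description of these letters only, and the windows of Npas2, Nr1d1, Nr1d2 and Dbp held none of them. The stretches around the matches are shown to give the context of the motif letters, each on its gene's strand with the motif in capitals.
Per1, chr11:69098738-69098833, plus strand, E-box 166 bases before the start: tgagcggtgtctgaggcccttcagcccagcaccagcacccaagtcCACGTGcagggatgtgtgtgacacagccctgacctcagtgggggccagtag
Cry1, chr10:85185064-85185159, minus strand, E-box 60 bases before the start: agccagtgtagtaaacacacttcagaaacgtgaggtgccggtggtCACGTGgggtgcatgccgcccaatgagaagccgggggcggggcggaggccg
Tef, chr15:81802501-81802596, plus strand, E-box 127 bases before the start: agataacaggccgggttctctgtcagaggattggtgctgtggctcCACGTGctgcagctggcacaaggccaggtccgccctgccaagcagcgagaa
Tef, chr15:81811231-81811326, plus strand, E-box 138 bases before the start: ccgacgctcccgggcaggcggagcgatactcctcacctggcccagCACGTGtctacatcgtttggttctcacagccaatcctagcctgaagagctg
Per3, chr4:151044771-151044915, minus strand, D-boxes 205 and 158 bases before the start: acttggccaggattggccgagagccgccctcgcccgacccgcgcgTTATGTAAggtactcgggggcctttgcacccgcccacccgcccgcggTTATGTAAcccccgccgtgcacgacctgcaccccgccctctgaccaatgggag
Arntl, chr7:113207530-113207558, plus strand, ROR/REV-ERB element after the start: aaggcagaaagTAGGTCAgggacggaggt

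Library totals ran from 12372073 to 15290950 counts, of which the ribosomal RNA precursor Rn45s took 8.30% to 12.4%. Levels are counts scaled to a common library total (CPM). Markers fitted the labelled tissues: 6 hepatocyte genes summed to between 26737 and 31631 CPM in liver and between 64.5 and 1008 in uterus, and Hoxa10 and Hoxa11, genes of uterine stroma, were at 0 in all 4 liver libraries. Some libraries also held RNA of other cell types. The 6 acinar pancreas genes summed to 859 CPM in the BPA liver library and to between 0.392 and 5.28 in the other liver libraries. In uterus, 5 urothelium genes summed to 3592 CPM with BPA and 6800 in the combined library, against 192 in control and 56.0 with KRG. The hepatocyte genes summed to 501 in control uterus and 1008 in KRG uterus, against 76.7 and 64.5 in the BPA and combined libraries. In bulk tissue, fewer cells of a type and less RNA per cell cannot be told apart.

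The positive arm was close to the detection limit in all 8 libraries. The other 8 members lay above it, from 4.78 CPM (Cry1 in BPA liver) to 808 CPM (Tef in BPA uterus). Arntl (chr7:113207465-113314126, plus strand, mm10) stood at 0.523, 0.154, 0 and 0.404 CPM in liver for control, BPA, KRG and combined, which are 8, 2, 0 and 5 counts. In uterus it stood at 1.12, 1.46, 0.154 and 0.879 CPM in the same order, or 15, 20, 2 and 13 counts. The 0 in KRG liver allows a level of up to 0.206 CPM, the value of 3 counts. It shares 33 exonic bases with the antisense gene Gm45355. In uterus Arntl was lowest in the KRG library. In liver the BPA level of 0.154 CPM lies under the limit of 0.206 for the KRG library, so these 2 libraries cannot be ranked.

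Npas2 stood at 0.523, 0.154, 0.137 and 0.162 CPM in liver, where the control library held 8 counts and the others 2 each. In uterus it stood at 0.149, 0.510, 1.23 and 0.541 CPM (2, 7, 16 and 8 counts), so that control was highest in liver and lowest in uterus. In the KRG uterus library Npas2 was 8.24-fold above control, with a 95% exact Clopper-Pearson interval of 1.94 to 73.9, and Arntl in the same pair of libraries was 7.28-fold lower (1.69 to 65.6). These intervals, like all in this report, cover counting error only, because the reads carry no molecular identifiers and are not independent molecules. The 2 genes therefore stood on opposite sides of control in the KRG uterus, on 2 to 16 counts each. Neither gene reached the mean of 1 CPM asked of a tested gene, so 8 of the 10 members entered the tests below.

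Summed, Arntl and Npas2 took 0.137 to 1.97 CPM and the 7 E-box genes 938 to 1588 CPM. Tef alone took 539 to 690 CPM of the E-box sum in liver and 526 to 808 in uterus. The ratio of E-box genes to positive arm ran from 704 in the combined uterus library to 7678 in the KRG liver library. On the log2(CPM + 1) scale, the mean of the positive arm minus the mean of the E-box genes was -5.48, -5.66, -5.87 and -5.60 in liver for control, BPA, KRG and combined. In uterus it was -5.80, -6.08, -6.02 and -5.53. The range was 0.39 in liver and 0.56 in uterus, but the added 1 damps a positive arm of 0 to 20 counts a gene, and the liver range was 1.18 with a pseudocount of 0.25 and 0.12 with 5. In no library did the positive arm approach its targets. On this scale the single-treatment libraries held the most negative values of each tissue. The plain ratio of the sums gave the same 2 libraries as highest in liver (3222 with BPA and 7678 with KRG, against 1053 in control), but in uterus it was highest in control (1049, against 807 with BPA and 959 with KRG). Clock, the partner of BMAL1 whose transcript varies less over the day in liver, stood at 9.14 ± 1.66 CPM in liver and 20.1 ± 3.91 in uterus (mean ± SD, n = 4 libraries), above the positive arm in every library.

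**Figure D1:**
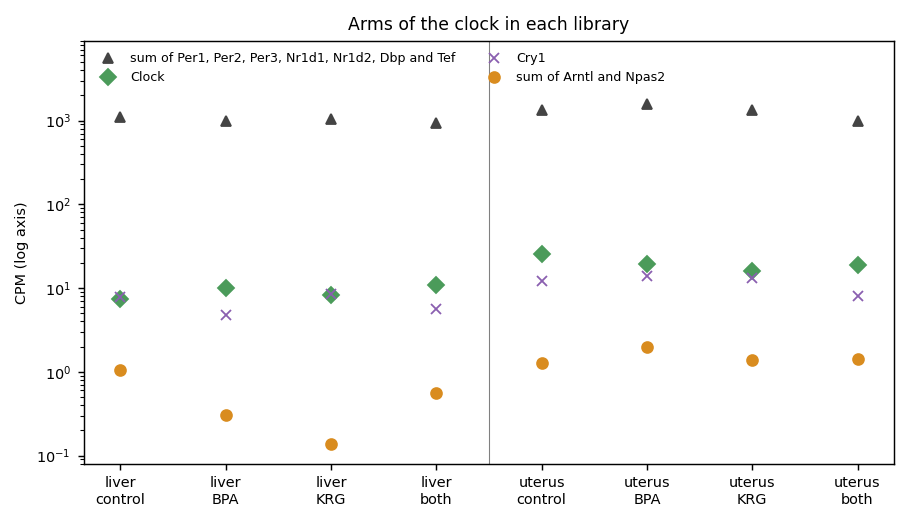
CPM on a log axis in each of the 8 libraries for the sum of the 7 E-box genes, for Clock, for Cry1 and for the sum of Arntl and Npas2; each point is 1 library. The E-box genes lie between 938 and 1588 CPM in all libraries, and the positive arm lies between 0.137 and 1.97.

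The 8 measurable members had the same order of mean level in both tissues, over 4 libraries of different treatment each. Tef, a D-box activator, led at 615 ± 62.5 CPM in liver and 670 ± 120 in uterus (mean ± SD, n = 4 libraries). Nr1d2 followed at 191 ± 22.8 and 351 ± 84.5, then Dbp at 121 ± 22.5 and 107 ± 32.6. Next came Per1 (38.3 ± 8.32 and 59.2 ± 26.4 CPM), Per2 (23.2 ± 5.48 and 48.5 ± 21.1), Per3 (18.8 ± 2.77 and 40.8 ± 14.5) and Nr1d1 (13.9 ± 2.61 and 35.0 ± 6.59). Cry1 was lowest at 6.70 ± 1.76 and 11.8 ± 2.61. Ranges of neighbours in this order overlapped for Per1 and Per2, Per2 and Per3, and Per3 and Nr1d1 in both tissues, and for Dbp and Per1 in uterus. Tef, Nr1d2 and Dbp did not overlap with each other in either tissue, nor did Cry1 with Nr1d1.

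**Figure D2:**
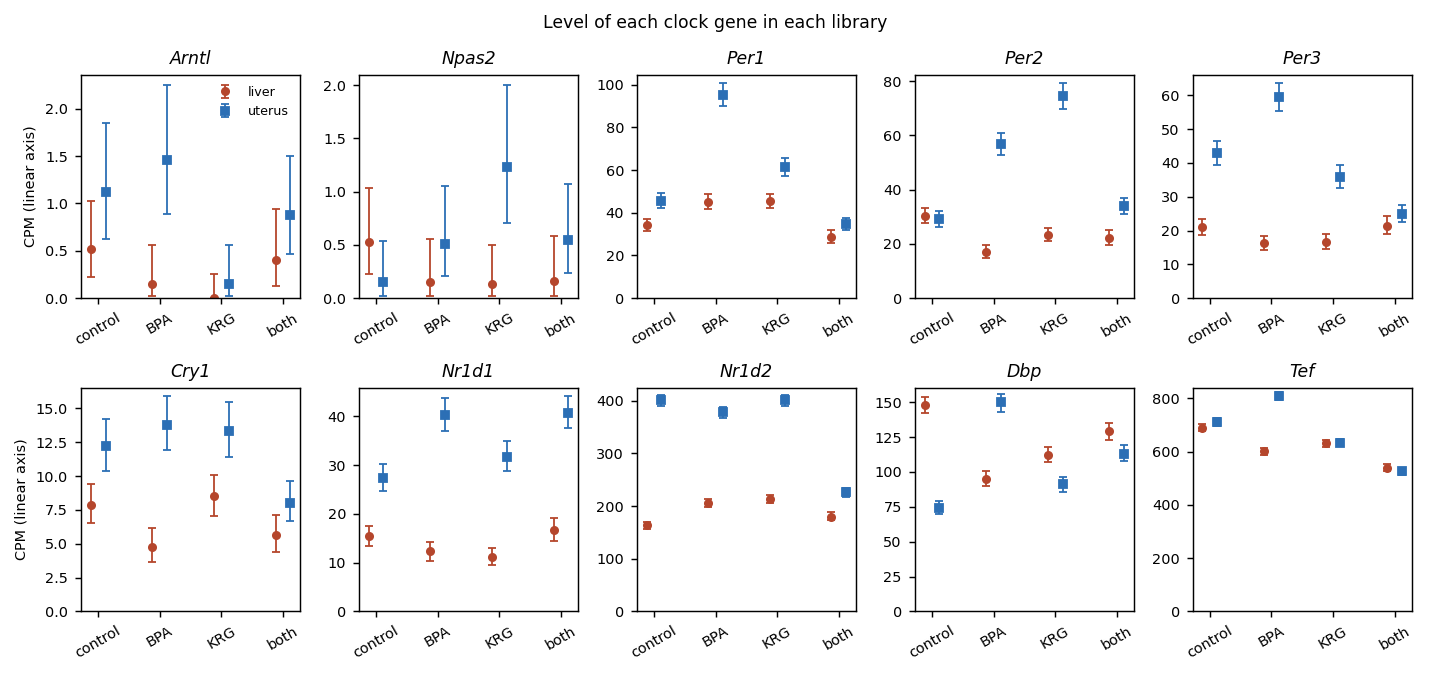
CPM on a linear axis for each member in the control, BPA, KRG and combined (both) libraries of liver (circles) and uterus (squares); bars are 95% counting intervals of single libraries. Per1 is higher in the BPA and KRG libraries than in the control and combined libraries of each tissue, and Dbp in the BPA library is lowest in liver and highest in uterus.

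Per1, an inhibitor of the activator and a gene quickly induced by hormonal signals (chr11:69095217-69109960, plus strand, mm10), was the only member with the same pattern over the treatments in both tissues. It stood at 34.2, 45.2, 45.4 and 28.6 CPM in liver, in the order control, BPA, KRG and combined. In uterus it stood at 45.7, 95.3, 61.4 and 34.6 CPM. Both single-treatment libraries exceeded the control and combined libraries in each tissue, without overlap, and the combined library was lowest. Against control, the BPA ratio was 1.32 (1.17 to 1.49) in liver and 2.09 (1.90 to 2.30) in uterus, and the KRG ratio was 1.33 (1.18 to 1.49) in liver and 1.34 in uterus, with a lower bound of 1.21. The combined library was 1.20-fold below control in liver (1.04 to 1.37) and 1.32-fold in uterus (1.17 to 1.49). Of 11113 genes compared for order, 1.20% had the single treatments above neither and both in each tissue, and of the 8 members compared, Per1 alone did. The reverse order held for 0 of the 8 (3.82% of genes). For 0 of the 8 did both libraries with BPA lie above both without in each tissue (4.26% of genes) or below them (3.12%), and the same was true of KRG (1.37% above and 1.51% below).

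Over all 8 libraries, with tissue as a covariate, edgeR's quasi-likelihood test called 0 of 13790 genes for any treatment difference shared by the tissues (percent called 0), with 505 genes (3.66%) at an unadjusted p under 0.05. Per1 was the only member among the latter (edgeR adjusted p = 0.999). A contrast added after the Per1 values were seen, single treatments against neither or both, gave Per1 a log2 difference of 0.81 (SE 0.14, edgeR adjusted p = 0.999), and 0.70 to 0.92 when each library was left out in turn. Here edgeR called 0 genes and 422 (3.06%) had an unadjusted p under 0.05, Per1 alone among the members. DESeq2 called Per1 in both, as 1 of 61 genes for any treatment difference (0.442% of genes, Per1 adjusted p = 0.00128) and as 1 of 6 for the added contrast (0.0435%, adjusted p = 0.00431). The call for Per1 thus depends on the tool. These p-values measure the spread that tissue and treatment leave over; if both organs of each animal were used, the tissues are no replicates over animals. In liver the erythroid marker sum was also higher with single treatments (2947, 6033, 4370 and 1477 CPM in the usual order) but in uterus it was not (4133, 1930, 3065 and 667), and its part in the result was not tested.

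Outside the 10, both single-treatment libraries also exceeded the control and combined libraries of each tissue in single genes of the lists examined. Tsc22d3, a glucocorticoid target which encodes the glucocorticoid-induced leucine zipper protein GILZ, stood at 103, 210, 243 and 149 CPM in liver and 207, 288, 352 and 115 in uterus. Unlike Per1, Tsc22d3 was lowest in control in liver. Its log2 difference in the added contrast was 0.99 (SE 0.24, edgeR adjusted p = 0.999). Noct, a clock-controlled gene also listed as Ccrn4l, was likewise highest with the single treatments in each tissue, at a lower level in uterus (24, 28, 52 and 21 counts). It stood at 2.04 CPM in BPA uterus against 1.79 in control, a small difference on so few counts. Its log2 difference was 1.10 (SE 0.23, edgeR adjusted p = 0.999). Single treatments exceeded neither and both without overlap in both tissues for 2 of 12 glucocorticoid-responsive genes (Tsc22d3 and Errfi1), 1 of 19 clock-controlled outputs (Noct), 1 of 10 temperature-responsive genes (Dnajb1), 0 of 10 other core clock genes and 0 of 14 clock regulators measured. No list had a gene called by edgeR in this contrast. For any treatment difference, DESeq2 called 3 of the 12 glucocorticoid-responsive and 1 of the 10 temperature-responsive genes, where it called 0.442% of genes. In KRG liver, 6 of the 12 glucocorticoid-responsive genes were at least 2-fold above control, where 1.38% of 11473 genes were. In BPA liver 4 and in combined liver 3 of the 12 were, where 5.16% and 3.22% of genes passed 2-fold in either direction. All these ratios share 1 control liver library, and its part was not tested. The lists were chosen with earlier results of these data known, so a share of a list above that of all genes is a description only. In the KRG liver library 6 of 6 skeletal muscle markers were at least 2-fold above control, with a sum of 413 CPM against 147 in control, 2.47 with BPA and 1.54 in the combined library, and their part in the result was not tested.

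**Figure D3:**
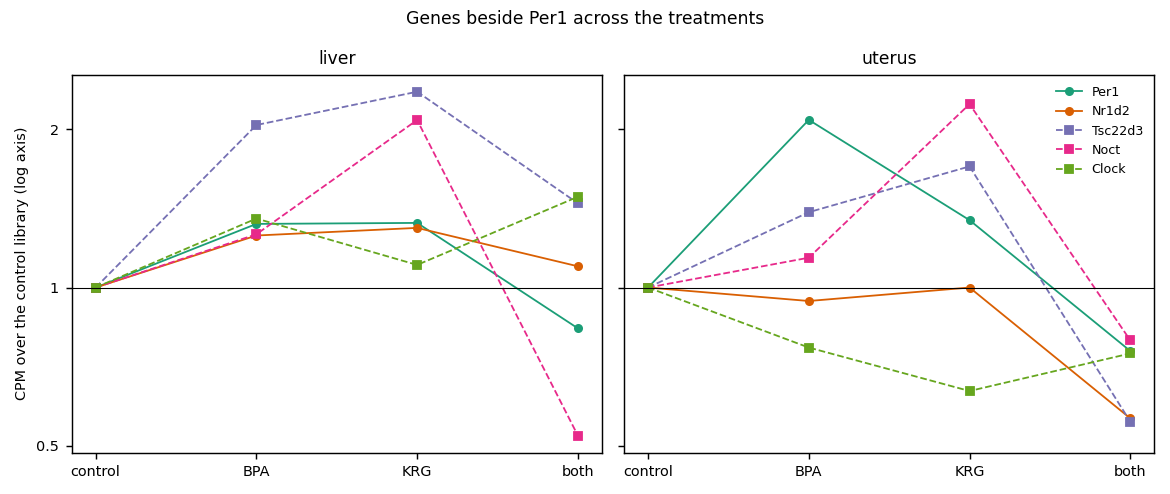
CPM of each gene divided by its level in the control library of the same tissue, on a log axis, for liver and uterus; each point is 1 library. Per1, Tsc22d3 and Noct are above 1 in both single-treatment libraries of each tissue and lower in the combined library, while Clock is above 1 in treated liver and below 1 in treated uterus.

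Per2 and Dbp lay on opposite sides of control in the 2 tissues. Per2, an inhibitor of the activator (chr1:91415982-91459324, minus strand), stood at 30.3, 17.0, 23.3 and 22.2 CPM in liver, where control was highest. In uterus it stood at 29.0, 56.8, 74.4 and 33.8 CPM, where control was lowest. Within each tissue, the BPA library differed from control by a ratio of 0.561 (0.476 to 0.660) in liver and 1.96 (1.73 to 2.22) in uterus, and the KRG library by 0.768 (0.666 to 0.885) and 2.56 (2.28 to 2.89). In the KRG uterus the adipocyte marker sum was 11188 CPM, against 4657 to 5215 in the other uterus libraries, and the neutrophil marker sum was 1266 CPM, against 201 to 329. Of the adipocyte genes 4 of 5 were at least 2-fold above control there, and of the neutrophil genes 5 of 5. Their part in the Per2 level was not tested.

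Dbp (chr7:45705088-45710203, plus strand) stood at 148, 95.1, 112 and 129 CPM in liver and 74.3, 150, 91.0 and 113 in uterus. Control was highest and BPA lowest in liver, and the reverse held in uterus. The BPA ratio was 0.644 (0.601 to 0.691) in liver and 2.01 (1.87 to 2.17) in uterus. Dbp shares up to 539 exonic bases with Sphk2 on the opposite strand, and the use of strand in counting is not given in the sources used here, so reads of this pair cannot be told apart. Sphk2 stood at 201, 161, 154 and 193 CPM in liver and 119, 192, 121 and 163 in uterus, the same order as Dbp in uterus and with control highest in liver. In uterus the libraries high in Dbp were also those high in urothelium markers, whose part was not tested.

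A test of whether the BPA effect differed between the tissues, added after the Dbp values were seen, called 276 of 13790 genes (2.00%) by edgeR and 0 of the 8 members. Dbp gave a log2 difference, liver minus uterus, of -0.80 (SE 0.37, edgeR adjusted p = 0.507), which ran from -1.12 to -0.31 with each library left out. It was -0.32 without the BPA uterus library and -0.31 without the control uterus library. Per2 gave -0.29 (SE 0.70, edgeR adjusted p = 0.932). The same test for KRG called 0 genes, with 666 (4.83%) at an unadjusted p under 0.05 and none of them a member. The opposite directions of Per2 and Dbp are therefore a description of these 8 libraries.

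Per3, the third Per gene, stood at 21.0, 16.2, 16.7 and 21.4 CPM in liver and 42.9, 59.5, 35.9 and 24.9 in uterus. The combined library was lowest in uterus. In liver it was highest, but its counting interval (18.9 to 24.2 CPM) overlapped that of control (18.8 to 23.4). Cry1, the co-inhibitor, stood at 7.85, 4.78, 8.50 and 5.66 CPM in liver and 12.2, 13.8, 13.3 and 8.04 in uterus. The combined library was below control in both tissues, by 1.39-fold (1.02 to 1.89) in liver and 1.51-fold (1.19 to 1.93) in uterus.

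The REV-ERB genes differed from each other. Nr1d1 stood at 15.4, 12.3, 11.1 and 16.7 CPM in liver and 27.3, 40.3, 31.6 and 40.7 in uterus, highest in the combined library of each tissue. The counting interval of that library overlapped that of control in liver (14.5 to 19.1 against 13.5 to 17.5 CPM). In uterus it overlapped that of BPA (37.5 to 44.1 against 37.0 to 43.8). Nr1d2 stood at 164, 206, 213 and 180 CPM in liver and 401, 378, 401 and 226 in uterus. In the combined uterus library Nr1d2 was 1.78-fold below control (1.70 to 1.86) where Nr1d1 was 1.49-fold above it (1.30 to 1.70). Nr1d1 shares up to 263 exonic bases with Thra on the opposite strand, which stood at 4.59 to 6.71 CPM in liver and 35.9 to 46.5 in uterus, so that its uterus levels are uncertain. Nr1d2 overlaps no annotated exon of another gene.

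Tef varied least in liver. It stood at 690, 602, 631 and 539 CPM in liver and 712, 808, 634 and 526 in uterus, lowest in the combined library of each tissue. That library was 1.28-fold below control in liver (1.24 to 1.32) and 1.35-fold in uterus (1.31 to 1.39). Tef shares up to 193 exonic bases with the antisense gene Gm17597. Its highest and lowest liver levels were 1.28-fold apart and those of Dbp 1.55-fold.

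**Figure D4:**
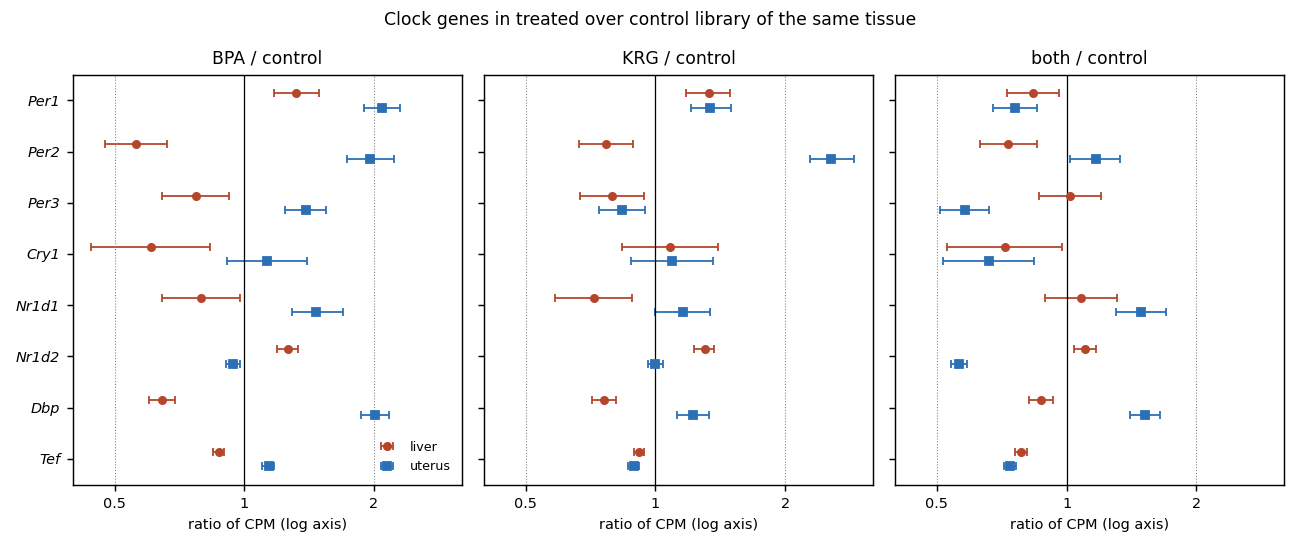
Ratio of CPM in the BPA, KRG or combined library to the control library of the same tissue, on a log axis, for the 8 members that passed the filter; bars are 95% counting intervals, and dotted lines mark 2-fold. For BPA, 6 of the 8 genes lie below 1 in liver, and 7 of the 8 lie above 1 in uterus.

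Past 2-fold on log2(CPM + 1), with 1 library a side and no test, were Per1 and Dbp in BPA uterus (2 of 8 members, where 3.88% of 14166 genes were at least 2-fold higher) and Per2 in KRG uterus (1 of 8, against 2.60%). No member was 2-fold higher or lower in the other comparisons, in which 5.16%, 2.76% and 3.22% of 11473 genes in liver (BPA, KRG and combined) and 11.7% in combined uterus passed in either direction. Dbp lay at the threshold and Per2 in BPA uterus, at 0.95, just under it. The median log2 ratio of the members against control was 0.50 in BPA uterus, where 7 of 8 were above 0 and the median of all genes was 0.04. In BPA liver it was -0.33, with 2 of 8 above 0 and a median of all genes of -0.11. In combined uterus it was -0.41, with 3 of 8 above 0 and a median of all genes of -0.04. These comparisons share the control library of their tissue.

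With edgeR, no member was called in any designed test of treatment, while DESeq2 called Per1 for any treatment difference, as given above. For BPA, KRG and the combined treatment against control in both tissues, edgeR called 0 of 13790 genes each (percent called 0), with 345 (2.50%), 311 (2.26%) and 683 (4.95%) at an unadjusted p under 0.05, while DESeq2 called 6, 5 and 21. Per1 had a log2 difference of 0.79 with BPA (SE 0.19, edgeR adjusted p = 1) and of 0.50 with KRG (SE 0.19, edgeR adjusted p = 1). Both were under 0.05 before adjustment, and no other member was in these contrasts. Within 1 tissue, 2 libraries with an agent against 2 without, edgeR called 0.0174% of genes for BPA in liver, 0.0174% for KRG in liver, 2.36% for BPA in uterus and 0 for KRG in uterus (634 at an unadjusted p under 0.05, DESeq2 27). None was a member. The smallest p-values of members were those of Cry1 for BPA in liver (log2 difference -0.63, SE 0.26, edgeR adjusted p = 0.891) and Dbp for BPA in uterus (0.60, SE 0.25, edgeR adjusted p = 0.388).

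Between the tissues, most genes differed, and the direction for a given gene depends on scaling. edgeR with TMM factors called 68.7% of 13790 genes (78.5% with column totals), with a median log2 difference, liver minus uterus, of -0.18, while column totals moved that median to -1.12. Under TMM the calls were 4215 higher and 5260 lower in liver, and under column totals 2067 and 8764. Of 8 members, 3 were called under TMM, all higher in liver, and 6 under column totals, all lower in liver. Those under TMM were Dbp (1.15, SE 0.25, edgeR adjusted p = 0.00731), Tef (0.83, SE 0.20, edgeR adjusted p = 0.00945) and Per1 (0.39, SE 0.14, edgeR adjusted p = 0.0414). Under column totals Dbp was 0.21 (edgeR adjusted p = 0.506) and Tef -0.11 (edgeR adjusted p = 0.596). The 6 called there were Per1 (-0.55), Per2 (-0.99), Per3 (-1.06), Cry1 (-0.82), Nr1d1 (-1.33) and Nr1d2 (-0.85), with edgeR adjusted p-values from 0.00091 to 0.0334. Per1 was thus called in opposite directions under the 2 scalings. Under TMM its call was lost with a mean of at least 10 CPM asked of a gene (0.17, edgeR adjusted p = 0.286) and with no filter (0.40, edgeR adjusted p = 0.0571). It was also lost in 6 of the 8 fits that leave out 1 library, the exceptions being those without a BPA library.

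A scaling factor moves all genes alike, so a difference taken relative to the median of all genes tested is the same under both scalings by construction, but it moves with the filter that sets those genes. Dbp stood 1.33 above that median, 1.02 with a mean of at least 10 CPM and 1.56 with no filter. Tef stood 1.01 above it, or 0.70 and 1.24 with those filters. Per1 stood 0.57 above it (0.26 and 0.80) and Cry1, which averages under 10 CPM, 0.30 (0.53 with no filter). The signs of the others turned with the filter. Nr1d2 was at 0.27 (-0.04 at 10 CPM), Per2 at 0.13 (-0.18), Per3 at 0.06 (-0.25) and Nr1d1 at -0.21 (0.02 with no filter). The 2 D-box activators were the members highest above the median under each of these 3 filters. Hlf, the other gene of their family, was 0.97 above the median with the filter of 1 CPM. Its TMM difference between the tissues was tested against 0 (edgeR adjusted p = 0.011). No distance from the median was tested. Of the other core clock genes, 9 of 11 tested were called under TMM, 7 higher and 2 lower in liver, and 8 under column totals, 4 higher and 4 lower. Among those under TMM were Ciart, a repressor of the activator (3.38, SE 0.28, edgeR adjusted p = 0.000144), Nfil3, a D-box repressor (2.05, SE 0.31, edgeR adjusted p = 0.00141) and Bhlhe40, an E-box repressor (2.09, SE 0.16, edgeR adjusted p = 0.000115). Bhlhe41, its paralog, was lower in liver (-2.22, SE 0.51, edgeR adjusted p = 0.00815). Clock itself was at -0.19 (SE 0.21, edgeR adjusted p = 0.449), and Cry2 at 0.68 (SE 0.16, edgeR adjusted p = 0.00896).

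**Figure D5:**
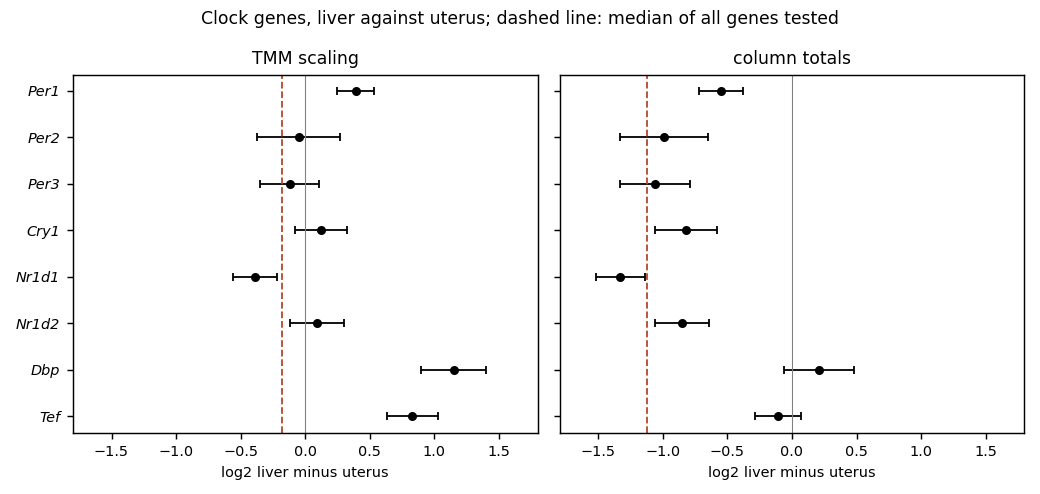
Log2 difference, liver minus uterus, of the 8 tested members from edgeR over 8 libraries with TMM scaling and with column totals; bars are ±1 SE and the dashed line is the median of all genes tested. All members shift together between the panels, and Dbp and Tef lie farthest above the dashed line in each.

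In the treatment comparisons the rest of the pathway was described by list. Of the other core clock genes, 0 of 11 tested were called by edgeR in any contrast shared by the tissues, and those with the largest change in the same direction in both tissues, taken as the smaller of the 2 tissues' changes, were Bhlhe41 and Nfil3 with BPA. Bhlhe41 stood at 11.1, 25.7, 14.1 and 26.7 CPM in uterus. In liver it stood at 2.16, 3.93, 1.92 and 0.647 CPM (33, 51, 28 and 8 counts). The combined library was thus lowest in liver and highest in uterus. Nfil3 stood at 4.41, 1.97, 5.16 and 3.85 CPM in uterus and at 81 counts in BPA liver against 153 in control. Ciart, an E-box gene, was lowest in the combined library of each tissue, at 7.76 and 1.22 CPM. Of 15 clock regulators, edgeR called 0. Usp2, a deubiquitinase gene with clock-driven expression, stood at 94.9 CPM in KRG liver and 40.3 in combined liver, and at 53.9 in BPA uterus and 26.8 in combined uterus. Of 20 clock-controlled outputs, edgeR called 0 in the shared contrasts. Of the 19 tested for BPA within uterus it called 1, where 2.36% of genes were called. DESeq2 called 1 of the 20 for any treatment difference (DESeq2 adjusted p = 0.0106), where it called 0.442% of genes. For BPA within uterus DESeq2 called 2 of the 19, and 638 of 14166 genes. The gene called by edgeR was Mreg, a gene of melanosome and vesicle transport, at 5.08, 20.6, 4.46 and 40.5 CPM (log2 difference 2.53, SE 0.36, edgeR adjusted p = 0.0355). Its 4 levels had the same order as the urothelium marker sums of these libraries (192, 3592, 56.0 and 6800 CPM), whose part in the result was not tested.

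The genes most like the arm difference were sought among 153 genes with at least 10 CPM in each tissue and a range of at least 1 on the log2 scale within each. Likeness was Pearson's r with the arm difference over 8 libraries, both centred within tissue, a description over libraries that share treatments and depth. Tsc22d3 was lowest at -0.94, followed by Gm10684 (-0.76), Amica1 (-0.74), Cyp2d22 (-0.73) and Meg3 (-0.66). The highest were Srebf2 (0.76), Tnfaip2 (0.71), Ypel2 (0.70), Arhgef10l (0.67) and Ttyh3 (0.66). Of the positive arm, Arntl had 0.34 and Npas2 -0.08. Of the E-box genes, Per1 had -0.86, Nr1d2 -0.84, Tef -0.55, Per3 -0.49, Per2 -0.47, Dbp 0.01 and Nr1d1 0.39. Over the 8 libraries together, the score thus followed Per1 and Nr1d2 most closely among its genes. The tissues differed in this. In liver the mean of the positive arm had a range of 0.51 and that of the E-box genes 0.22, and the positive arm ranked the libraries as the score did. In uterus these ranges were 0.30 and 0.73. These genes make up the arm difference, so their values describe the score and are no result about the members. Cry1, which does not enter the score, had -0.66.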

How the data were processed

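Whole-number counts per gene were deposited for each library by the authors, 1 table per library. Bowtie2, edgeR and the build mm10 appear in the submitters' processing notes, without version or role. How reads were counted, strand use and multiple matches included, is not given in the sources used here. Gene positions come from GENCODE M21 on the same build, and promoters from RefSeq.

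CPM of column totals served for levels. Folds used log2(CPM + 1), which understates changes of low genes, among genes averaging 1 CPM or more in the tissue, and 95% Clopper-Pearson intervals. Tests used edgeR 4.0.16 quasi-likelihood with TMM in R 4.3.3, Benjamini-Hochberg over all genes: tissue plus treatment over 8 libraries (3 residual degrees of freedom), and BPA plus KRG over the 4 libraries of a tissue (1). The fits were tested on simulated data. DESeq2, other scalings, filters, pseudocounts and each library left out were alternatives.

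All members are named. Of each other list, up to 4 genes with the largest change against control in the same direction in both tissues are named, with 9 core clock genes, not all of which are reported here, and the 5 highest and 5 lowest likenesses. Errfi1 and Hsp90aa1 were named after their values were seen. The members and lists were chosen with earlier results of these data known.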

Additional observations from a re-analysis of the deposited data

Results flagged for a closer look

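For 3 members, every treated liver library lay below its control and every treated uterus library above its control. The mean log2 ratio against control over the 3 treated libraries was -0.53 in liver and 0.83 in uterus for Per2, a difference of -1.36. It was -0.40 and 0.63 for Dbp, a difference of -1.03. It was -0.40 and 0.59 for Npas2, a difference of -0.99 that rests on 2 to 16 counts a library. The 3 ratios of a tissue share 1 control library. The difference of treated from control between the tissues was not tested as such, and the tests of a BPA or a KRG effect that differs between them called no member.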

How the results depend on the processing

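No paired analysis was possible because each group holds 1 library and the labels give no replicate numbers. The counts of genes called depended on the tool: with DESeq2, BPA, KRG, combined and any treatment over both tissues gave 6, 5, 21 and 61 where edgeR gave 0. Within a tissue DESeq2 gave 32 (BPA liver), 45 (KRG liver), 638 (BPA uterus) and 27 (KRG uterus), against 2, 2, 334 and 0 with edgeR; a mean of at least 10 CPM gave 0, 0 and 204 for the first 3, and no filter 32, 25, 628 and 3. For the comparisons chosen after seeing the data, DESeq2 gave 70 (with against without BPA), 6 (KRG) and 6 (single treatments), against 0 each, and 479 (BPA difference between tissues, edgeR 276) and 32 (KRG difference, edgeR 0). With each library left out the BPA difference gave 147 to 314, including 174 without BPA liver, 157 without KRG uterus and 147 without combined uterus.

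Signs of the liver minus uterus log2 difference turned under column totals, with or without Rn45s, for Per1 (-0.55), Cry1 (-0.82), Nr1d2 (-0.85) and Tef (-0.11). Those of Per2 (0.01 with DESeq2), Nr1d2 (-0.12 at 10 CPM) and Per3 also turned: with each library left out Per2 ran from -0.39 to 0.26, Per3 from -0.36 to 0.12 and Nr1d2 from -0.05 to 0.27. The mean arm difference in liver and uterus moved to -7.01 and -6.77 with a pseudocount of 0.25, -3.73 and -4.18 with 5, -5.27 and -5.49 with Cry1 subtracted too, and -6.07 and -6.23 without Per1 and Per2. Its range in liver was 1.18 and 0.12 with those pseudocounts, and in uterus 1.14 with Arntl alone, since the positive arm lies near 0 counts. Members past 2-fold in BPA uterus were 1 with TMM factors and 0 with a pseudocount of 5; past 1.5-fold, 3 in BPA liver and 3 in combined uterus. Of 336 member ratios under alternatives, 329 stayed within their counting interval, and 3 changed sign. The 336 include the other CPM filters and the 1.5-fold threshold, which leave a ratio unchanged by construction. Only the other scalings and pseudocounts could move one. The causes were not tested. Depth limits the positive arm: 3 counts are 0.196 to 0.242 CPM.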

Other observations

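Some temperature-responsive genes lay apart with BPA in both tissues. Hsph1, a heat shock protein gene, stood at 76.8, 42.2, 84.7 and 33.1 CPM in liver (control, BPA, KRG, combined) and at 48.0, 31.9, 55.9 and 30.2 in uterus. Both libraries with BPA were below both without in each tissue. Over 4 libraries with and 4 without BPA, a comparison chosen after the values were seen, its log2 difference was -0.93 (SE 0.17, edgeR adjusted p = 0.475). Cirbp, a gene induced by cold, stood at 92.5 to 102 CPM in uterus without BPA and at 133 and 140 with it, and its log2 difference was 0.53 (SE 0.12, edgeR adjusted p = 0.557). Hsp90aa1, named after its values were seen, gave -0.62 (SE 0.23, edgeR adjusted p = 0.7). Of the 10 genes of that list, 2 were below without overlap in both tissues (against 3.12% of genes) and 1 above (against 4.26%), while of the 8 members compared 0 were below and 0 above. The order was not particular to that list. Below were also 3 of 12 glucocorticoid-responsive genes (Zbtb16, Tat and Pck1) and 1 of 19 clock-controlled outputs (Gys2), and 1 of those 19 (Mreg) was above. In uterus Tat held 0 to 40 counts and Gys2 3 to 41. The lists were chosen with earlier results of these data known. edgeR called 0 genes in this comparison and 932 had an unadjusted p under 0.05, while DESeq2 called 70 of 13790. Among those 70 were 1 of the 10 temperature-responsive and 1 of the 12 glucocorticoid-responsive genes, both lower with BPA.

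Among glucocorticoid-responsive genes, Zbtb16 stood at 11.4, 7.94, 41.5 and 5.42 CPM in liver and 43.6, 20.8, 53.4 and 15.9 in uterus, highest with KRG alone and lowest in the combined library of each tissue. Its log2 difference with BPA was -1.61 (SE 0.41, edgeR adjusted p = 0.591). The glucocorticoid-responsive list was chosen with earlier results of these data known. In KRG liver 12 of its 12 genes were above control, with a median log2 ratio of 1.01. In BPA and combined liver 6 and 8 of the 12 were above the same control library, with medians of 0.19 and 0.28. In KRG uterus 11 of 12 were above 0, with a median of 0.43, and 0 were 2-fold higher. The hepatocyte, adipocyte and neutrophil marker sums were 1008, 11188 and 1266 CPM in that library. In control uterus they were 501, 5215 and 329 CPM, and their part was not tested. Skeletal muscle markers were also highest in the KRG liver library among the liver libraries (413 CPM, against 1.54 to 147), and their part was not tested.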
